A study of Homo sapiens with 12 samples.

Results

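The 41 genes described here make the proteins that copy DNA or that let a cell pass the border between G1 and S phase. They were taken by name: subunits of the origin recognition complex, licensing factors, the MCM helicase, firing factors, the clamp and its loader, single-strand binding proteins, polymerases and primase, Okazaki fragment enzymes, nucleotide enzymes, the E cyclins and E2F1. All 41 were measured, among 19775 genes on the arrays, and each was read through the probe set with the highest mean over all arrays among those annotated to that gene alone.

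Before S phase, the origin recognition complex binds DNA, and CDC6 and CDT1 load the MCM2 to MCM7 ring there as an inactive helicase. CDC45 and the GINS complex then join the ring, and primase, the polymerases, the sliding clamp PCNA and its loader follow. Many of these genes are transcribed in a wave at the G1/S border through E2F factors, which cyclin E with its kinase frees from RB1. Human ES cells are known for a short G1 phase, which lengthens as they differentiate.

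H9 is a line of human embryonic stem cells. All 12 arrays hold H9 cells that carry a doxycycline-inducible (Tet-on) GCNF expression system, at passages 28 to 35. GCNF is the orphan nuclear receptor made by NR6A1, a repressor of pluripotency genes in mouse. The 4 groups of 3 arrays were differentiated cells given 1 ug/ml doxycycline (Dox) for 6 days, differentiated cells given 1 uM retinoic acid (RA) for 6 days, undifferentiated cells kept 4 days in 1 ug/ml Dox, called d0 with Dox, and untreated undifferentiated cells, called d0 without Dox. Differentiated cells grew in DMEM/F12 with 15% serum and undifferentiated cells in mTeSR on a coated plate, so day 6 and the change of medium cannot be told apart. The labels do not say whether the line is 1 clone. No Dox-treated cells without the construct and no day 6 cells without either agent were analysed here, so Dox itself and GCNF cannot be told apart. The titles call the replicates biological, without saying whether they came from separate cultures, and p-values then measure the spread between these samples.

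The values are array intensities that average 500 on every array after the lowest and highest 2% of probe sets are left out. A value is therefore a level within its array, and it is compared for 1 probe set across arrays, never between probe sets. The exception is the cell type markers, whose intensities are summed within an array. Replicate arrays correlated at r = 0.980 to 0.982 over all probe sets on the log2 scale, and no arrays were identical. Differences are on the log2(intensity + 16) scale with their standard error (SE), and "rose" and "fell" are used for an adjusted p under 0.05 (limma, Benjamini-Hochberg over 19775 genes). In RNA of whole cultures, fewer cells of a type and less RNA per cell cannot be told apart.

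Marker levels went against the labels of the day 6 groups. The NR6A1 probe set most induced at d0, 207742_s_at, averaged 29.2 on the Dox-labelled day 6 arrays, 336 on the RA-labelled ones, 615 at d0 with Dox and 26.8 at d0 without. The probe set that represents NR6A1, 228894_at, went the other way at day 6, with 1009 ± 223 on the Dox-labelled arrays and 528 ± 37.8 on the RA-labelled ones (SD, n = 3 each). It averaged 2869 at d0 with Dox and 1457 at d0 without, above both day 6 groups. On Dox-labelled against RA-labelled arrays, 210392_x_at averaged 166 against 406 and 211402_x_at 176 against 566. In contrast, 227494_at averaged 408 against 201 and 227496_at 365 against 207. 210391_at was near the floor, at 7.94 and 13.2. CYP26A1, the RA-degrading enzyme that RA induces, averaged 29594 on the Dox-labelled day 6 arrays and 271 on the RA-labelled ones. The day 6 groups are therefore called Dox-labelled and RA-labelled throughout. If those labels were exchanged, every sign between them would turn, and the pairing of each day 6 group with its d0 group would change.

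Day 6 cells of both labels had much less mRNA of the replication genes than undifferentiated cells. For 38 of the 41 genes, all 6 day 6 arrays lay under all 6 d0 arrays, which holds for 17.7% of all genes and does not depend on which day 6 label is right. The other 3 were ORC5, RFC5 and TYMS. In the Dox-labelled group against d0 with Dox, here called the Dox-labelled pair, 39 genes fell, 1 rose and 1 did not pass, where 23.9% of all genes fell and 22.2% rose. In the RA-labelled group against d0 without Dox, the RA-labelled pair, 40 genes fell and 1 rose, where 25.2% of all genes fell and 25.3% rose. The median log2 fold change of the 41 genes was -1.18 in the Dox-labelled pair, against -0.03 over all genes. In the RA-labelled pair it was -1.83, against -0.01 over all genes. With each day 6 group set against the other d0 group, 38 genes fell and 0 rose in the Dox-labelled group (23.8% and 24.6% of all genes), and 40 fell and 1 rose in the RA-labelled group (25.3% and 23% of all genes).

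**Figure D1:**
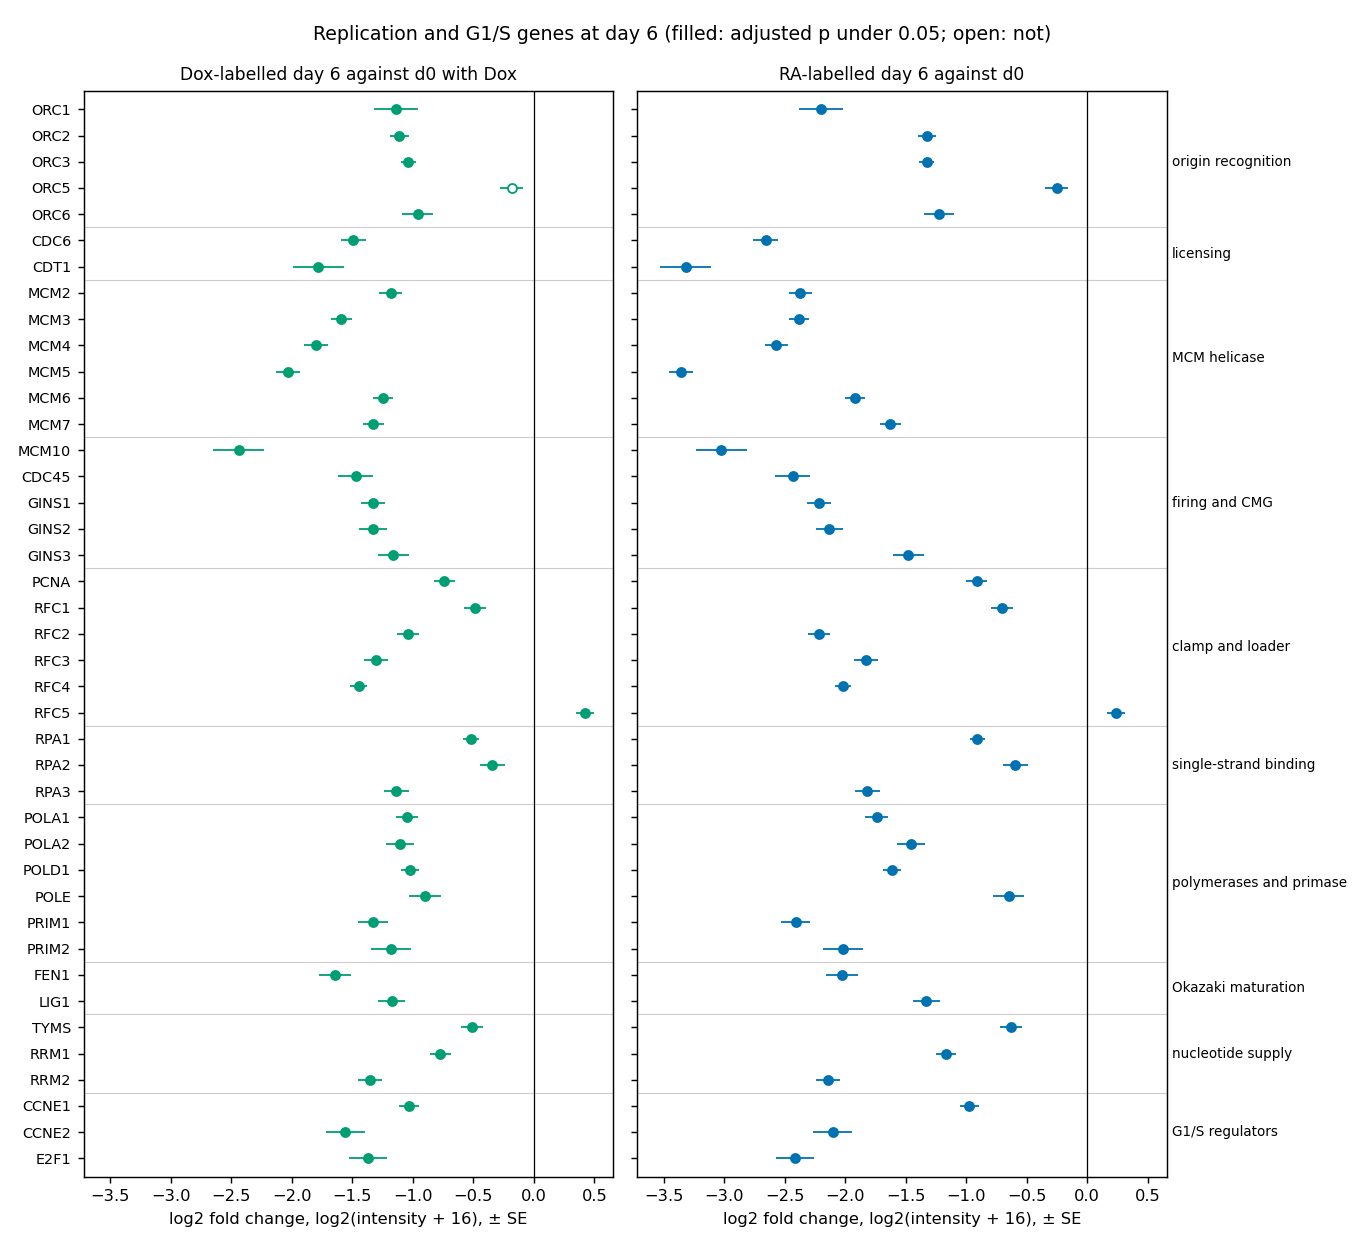
Log2 fold change of each of the 41 genes at day 6, with its SE, for the Dox-labelled group against d0 with Dox and the RA-labelled group against d0 without Dox (3 arrays a group). Except for RFC5, every gene lies below 0 in both pairs, and most lie further below it in the RA-labelled pair.

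Windows around the transcription starts of the genes were read for some of the letters that E2F factors recognise, since many replication genes are known E2F targets. The 300-base windows, 250 bases before to 50 after each start, come from RefSeq on GRCh38.p14, and 36 of the 41 genes matched by symbol, with 44 windows in all. MCM4, MCM5, RPA2, RPA3 and CCNE2 had no entry. Shown are CDT1, the gene whose day 6 falls differed most between the pairs, and E2F1 itself. MCM2 is shown as the helicase subunit that differed most between the day 6 groups. TYMS is shown as the gene that rose with Dox at d0, and MCM10 as a window with none of the E2F letters searched. MCM10 fell most in the Dox-labelled pair. The windows lie at chr16:88803539-88803838 (CDT1, plus strand), chr3:127598161-127598460 (MCM2, plus), chr20:33686336-33686635 (E2F1, minus), chr18:657403-657702 (TYMS, plus) and chr10:13161308-13161607 (MCM10, plus). Each is printed 5′ to 3′ on the gene's strand, and capitals mark the E2F letters searched, on either strand.
CDT1: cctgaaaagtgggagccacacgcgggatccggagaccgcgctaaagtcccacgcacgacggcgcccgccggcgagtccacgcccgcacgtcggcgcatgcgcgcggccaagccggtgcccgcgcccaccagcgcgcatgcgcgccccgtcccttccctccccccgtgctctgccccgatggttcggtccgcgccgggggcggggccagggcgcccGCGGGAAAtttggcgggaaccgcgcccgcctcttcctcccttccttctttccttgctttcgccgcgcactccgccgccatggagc
MCM2: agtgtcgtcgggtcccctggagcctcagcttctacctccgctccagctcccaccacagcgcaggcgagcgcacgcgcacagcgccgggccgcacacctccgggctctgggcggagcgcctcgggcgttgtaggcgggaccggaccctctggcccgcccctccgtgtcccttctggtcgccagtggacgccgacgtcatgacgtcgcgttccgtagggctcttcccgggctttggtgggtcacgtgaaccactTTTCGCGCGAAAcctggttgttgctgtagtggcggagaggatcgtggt
E2F1: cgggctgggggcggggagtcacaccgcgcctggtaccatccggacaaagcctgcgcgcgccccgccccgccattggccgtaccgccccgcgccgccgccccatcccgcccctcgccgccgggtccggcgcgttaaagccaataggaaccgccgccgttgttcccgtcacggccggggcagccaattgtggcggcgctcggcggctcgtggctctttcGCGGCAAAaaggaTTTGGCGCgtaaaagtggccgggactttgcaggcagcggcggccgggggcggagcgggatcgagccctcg
TYMS: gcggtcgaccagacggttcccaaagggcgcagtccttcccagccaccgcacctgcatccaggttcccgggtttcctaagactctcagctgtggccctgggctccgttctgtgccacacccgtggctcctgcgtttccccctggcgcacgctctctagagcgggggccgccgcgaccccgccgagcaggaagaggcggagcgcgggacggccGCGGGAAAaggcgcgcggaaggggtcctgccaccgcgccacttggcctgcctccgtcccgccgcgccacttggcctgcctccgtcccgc
MCM10: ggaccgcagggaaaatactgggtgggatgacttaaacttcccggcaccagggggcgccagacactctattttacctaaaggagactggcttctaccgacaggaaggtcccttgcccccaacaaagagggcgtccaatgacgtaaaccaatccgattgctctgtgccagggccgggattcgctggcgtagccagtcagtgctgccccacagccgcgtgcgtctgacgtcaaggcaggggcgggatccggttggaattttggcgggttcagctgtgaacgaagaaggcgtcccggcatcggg

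The letters searched were TTTCCCGC, TTTCGCGC, TTTGCCGC and TTTGGCGC on both strands. They were found in 18 of 36 genes (50%), against 5.36% of the 15384 tested genes with a window and 3.99% of the 27305 genes in the table. CDT1 and TYMS held 1 match each, starting 35 and 39 bases before the start. MCM2 held 2 that overlap, just after the start, and E2F1 held 2, starting 33 and 20 bases before it. No match says only that these letters are not in the window, and other forms of E2F site were not searched. The MCM10 and CDT1 windows hold TTTGGCGG, which differs from TTTGGCGC in its last letter and was not counted. The NF-Y letters CCAAT were in 22 of 36 genes (61.1%), against 41.7% of tested genes, and the CHR letters TTTGAA in 1 (2.78%), against 15.6%. None of these 3 motifs contains another. The GCNF DR0 repeat, the receptor's known direct repeat with no spacer, was in 0 of 36 genes and in 0.0195% of tested genes. Genes with and without a match to the E2F letters searched had close day 6 medians: -1.22 and -1.08 in the Dox-labelled pair, and -1.79 and -1.82 in the RA-labelled pair. Genes without a match may still hold other E2F sites. For Dox-labelled against RA-labelled arrays the medians were 0.51 with a match and 0.42 without.

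The 6 subunits of the MCM helicase, the ring that unwinds DNA at the fork, fell in both pairs. MCM2 read 1704, 1749.8 and 1459 on the Dox-labelled day 6 arrays, 732, 704 and 648 on the RA-labelled day 6 arrays, 3789.5, 3694 and 3708 on the d0 arrays with Dox and 3686, 3323 and 3998 on the d0 arrays without Dox. MCM3 read 2419, 2155 and 2024 on the Dox-labelled day 6 arrays, 1402, 1295 and 1295 on the RA-labelled day 6 arrays, 6559.7, 6453 and 6899 on the d0 arrays with Dox and 6988, 6617 and 7471 on the d0 arrays without Dox. Both genes showed the same order on every array: the RA-labelled arrays were lowest, the Dox-labelled ones next, and the d0 arrays of both kinds highest, with no overlap between day 6 groups or between day 6 and d0. MCM4 read 1035, 1061 and 971 on the Dox-labelled day 6 arrays, 572, 713 and 574 on the RA-labelled day 6 arrays, 3551, 3552 and 3672 on the d0 arrays with Dox and 3471, 4096 and 3662 on the d0 arrays without Dox. MCM5 read 513, 566 and 523 on the Dox-labelled day 6 arrays, 297, 352 and 269 on the RA-labelled day 6 arrays, 2148, 2285 and 2265 on the d0 arrays with Dox and 3159, 3070.5 and 3597 on the d0 arrays without Dox. MCM5 was the subunit with the least intensity left in both pairs, and its 3 d0 arrays with Dox lay below the 3 without. MCM6 read 4028, 3863 and 3446 on the Dox-labelled day 6 arrays, 2798, 2462 and 2571 on the RA-labelled day 6 arrays, 9009, 8914 and 8983 on the d0 arrays with Dox and 9703, 9287 and 10784 on the d0 arrays without Dox. MCM7 read 1428, 1252 and 1193 on the Dox-labelled day 6 arrays, 1118, 1015 and 969 on the RA-labelled day 6 arrays, 3319, 3327 and 3127 on the d0 arrays with Dox and 3294, 3034 and 3347 on the d0 arrays without Dox. For MCM7 the 3 Dox-labelled arrays again lay above the 3 RA-labelled ones, by the narrowest margin of the 6 subunits. In the Dox-labelled pair the subunits' log2 fold changes ran from -2.03 (MCM5, adjusted p = 1.15e-07) up to -1.18 (MCM2, adjusted p = 2.94e-06). In the RA-labelled pair they ran from -3.36 (MCM5, adjusted p = 3.16e-09) up to -1.63 (MCM7, adjusted p = 1.18e-07). MCM2 thus had the smallest fall of the 6 in the Dox-labelled pair, where the RA-labelled pair had MCM7.

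**Figure D2:**
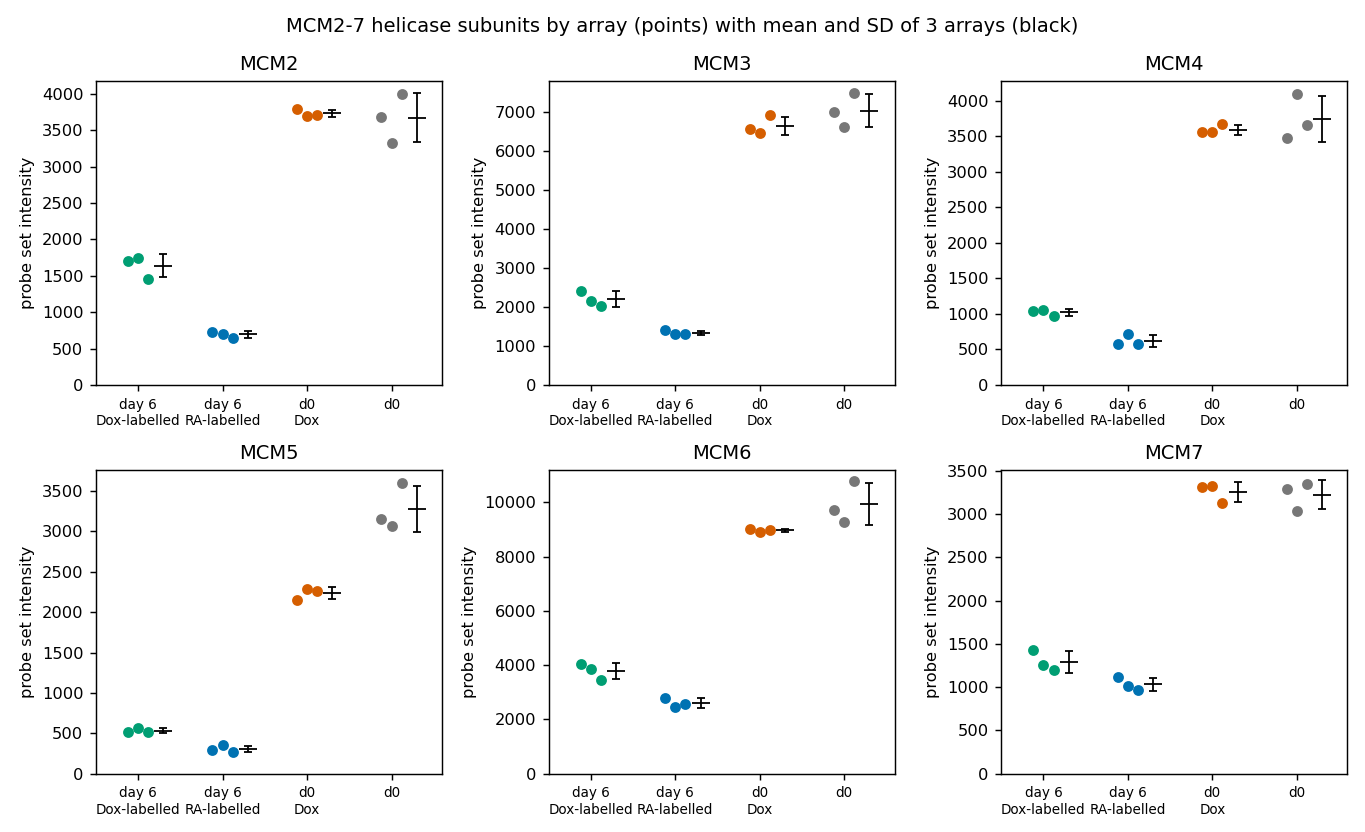
Intensity of MCM2 to MCM7 on each array (linear axis from 0), with points for single arrays and black marks for the mean and SD of 3, from left to right for Dox-labelled day 6, RA-labelled day 6, d0 with Dox and d0 without Dox. Day 6 arrays lie below d0 arrays for each subunit, the RA-labelled ones lowest.

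The 2 licensing factors had the lowest median log2 fold changes of the role groups, -1.64 in the Dox-labelled and -2.99 in the RA-labelled pair. CDT1, which brings the MCM ring to origins and is held back by geminin, read 504, 251 and 366 on the Dox-labelled day 6 arrays, 181, 169.5 and 157 on the RA-labelled day 6 arrays, 1152, 1405 and 1280.4 on the d0 arrays with Dox and 1922, 2021 and 1573 on the d0 arrays without Dox. Its Dox-labelled arrays were spread widely, but the lowest was still above all 3 RA-labelled ones. CDC6, the ATPase that loads the ring with CDT1, read 452, 393 and 346 on the Dox-labelled day 6 arrays, 249.8, 246 and 264 on the RA-labelled day 6 arrays, 1209.6, 1103 and 1106 on the d0 arrays with Dox and 1608, 1860.1 and 1588 on the d0 arrays without Dox. In the Dox-labelled pair the log2 fold changes were -1.78 ± 0.21 (adjusted p = 4.88e-05) for CDT1 and -1.49 ± 0.10 (adjusted p = 1.11e-06) for CDC6. In the RA-labelled pair they were -3.32 ± 0.21 (adjusted p = 3.57e-07) for CDT1 and -2.66 ± 0.10 (adjusted p = 1.4e-08) for CDC6.

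The firing factors MCM10, CDC45, GINS1, GINS2 and GINS3 all fell in both pairs, with median log2 fold changes of -1.33 in the Dox-labelled pair and -2.21 in the RA-labelled pair. MCM10, which activates the helicase, read 304, 335 and 174 on the Dox-labelled day 6 arrays, 237, 185 and 182 on the RA-labelled day 6 arrays, 1415, 1658 and 1407 on the d0 arrays with Dox and 1709.7, 1942 and 1595 on the d0 arrays without Dox. Its day 6 groups overlapped, since the lowest Dox-labelled array was below all 3 RA-labelled ones. CDC45, the helicase cofactor, read 223, 208 and 156 on the Dox-labelled day 6 arrays, 96.0, 69.0 and 96.5 on the RA-labelled day 6 arrays, 541, 621 and 536 on the d0 arrays with Dox and 535, 555 and 520.2 on the d0 arrays without Dox. The CDC45 groups did not overlap at day 6 or between day 6 and d0, but those at d0 did. GINS1 and GINS2, subunits of the 4-part GINS complex, had similar falls: -1.33 and -1.33 on the log2 scale in the Dox-labelled pair, and -2.21 and -2.13 in the RA-labelled pair. GINS3, of the same complex, had -1.16 and -1.48.

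Among the origin recognition genes, ORC1 had the largest fall in both pairs and ORC5 the smallest value. ORC1, the subunit whose abundance is known to vary through the cell cycle in human cells, read 237, 204 and 139 on the Dox-labelled day 6 arrays, 82.0, 99.8 and 92.1 on the RA-labelled day 6 arrays, 375, 464 and 477 on the d0 arrays with Dox and 533, 398 and 507 on the d0 arrays without Dox. Its log2 fold change was -1.14 ± 0.18 (adjusted p = 0.000468) in the Dox-labelled pair and -2.20 ± 0.18 (adjusted p = 2.94e-06) in the RA-labelled pair. ORC2, ORC3 and ORC6 fell, with log2 fold changes of -1.11, -1.04 and -0.96 in the Dox-labelled pair and -1.32, -1.33 and -1.22 in the RA-labelled pair. ORC5 had -0.18 ± 0.09 (adjusted p = 0.143) in the Dox-labelled pair and -0.25 ± 0.09 (adjusted p = 0.046) in the RA-labelled pair. Its probe sets disagreed. 211212_s_at fell in both pairs, with log2 fold changes of -0.47 in the Dox-labelled and -0.73 in the RA-labelled pair. Adjusted p was 0.00709 and 0.000368, in a limma fit of all 54675 probe sets. 211213_at had 0.35 and 0.21 without passing. With the mean of the 3, ORC5 did not pass in the RA-labelled pair (log2 fold change -0.26, adjusted p = 0.206). The RA-labelled call for ORC5 was lost without any 1 of 11 of the 12 arrays (adjusted p 0.0518 to 0.151).

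In the clamp and its loader the fall was uneven. PCNA, the sliding clamp, fell, with log2 fold changes of -0.74 in the Dox-labelled pair and -0.91 in the RA-labelled pair (adjusted p = 4.92e-05 and 7.72e-06). RFC2, a small subunit of the loader, read 628, 560.4 and 572 on the Dox-labelled day 6 arrays, 317, 350.9 and 285 on the RA-labelled day 6 arrays, 1259.5, 1306 and 1114 on the d0 arrays with Dox and 1539.8, 1507 and 1533 on the d0 arrays without Dox. RFC2, RFC3 and RFC4 fell, with log2 fold changes of -1.04, -1.31 and -1.45 in the Dox-labelled pair and -2.21, -1.83 and -2.02 in the RA-labelled pair. RFC1, the large subunit, fell, with log2 fold changes of -0.49 and -0.71 in those pairs. RFC5, another small subunit, was the gene with the opposite sign.

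RFC5's sign came from the probe set that represents it. That probe set, 213734_at, read 1722, 1539 and 1442 on the Dox-labelled day 6 arrays, 1593, 1698 and 1572 on the RA-labelled day 6 arrays, 1175, 1175 and 1132 on the d0 arrays with Dox and 1366, 1389.6 and 1356 on the d0 arrays without Dox. Its log2 fold change was 0.43 ± 0.07 (adjusted p = 0.00083) in the Dox-labelled pair and 0.24 ± 0.07 (adjusted p = 0.021) in the RA-labelled pair. Without d0 replicate 1, d0 replicate 3 or RA-labelled replicate 2, the RA-labelled value did not pass (adjusted p 0.0513 to 0.0737). The other 2 RFC5 probe sets went the other way. 203209_at averaged 1024 ± 138 (Dox-labelled), 527 ± 31.4 (RA-labelled), 2071 ± 17.6 (d0 with Dox) and 1788 ± 171 (d0 without; SD, n = 3 each). 203210_s_at averaged 249.6 ± 41.2, 126 ± 5.19, 533 ± 50.9 and 472 ± 99.8 in the same order of groups. Both fell, with log2 fold changes of -1.01 and -1.06 in the Dox-labelled pair and -1.73 and -1.76 in the RA-labelled pair. With the mean of its 3 probe sets the gene fell in both, at -0.55 in the Dox-labelled and -1.08 in the RA-labelled pair. The part of each probe set in the measurement of RFC5 was not tested.

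**Figure D3:**
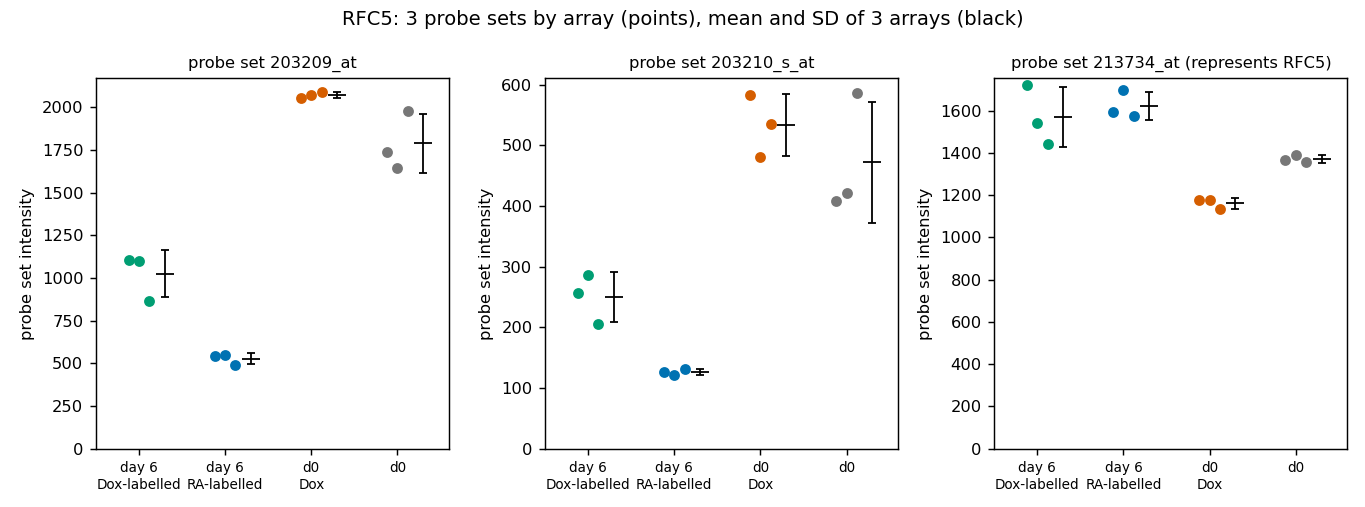
Intensity of the 3 RFC5 probe sets on each array (linear axis from 0), with points for single arrays and black marks for the mean and SD of 3, from left to right for Dox-labelled day 6, RA-labelled day 6, d0 with Dox and d0 without Dox. The probe set that represents the gene is higher at day 6, and the other 2 are lower.

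E2F1 also had probe sets that disagreed between the day 6 groups and in the difference of the day 6 changes. 2028_s_at averaged 57.5 ± 17.2 on the Dox-labelled and 83.1 ± 13.7 on the RA-labelled arrays (SD, n = 3 each). Its log2 fold change of -0.45 did not pass (adjusted p = 0.143 in a limma fit of all 54675 probe sets). The representing probe set had the opposite sign, as given below. Of the 36 other probe sets of the 41 genes, 32 had the sign of the representing one in the Dox-labelled pair and 31 in the RA-labelled pair. Fewer shared its sign elsewhere: 24 of 36 between the day 6 groups and 28 in the difference of the day 6 changes. For d0 with Dox against d0 without, 18 of 36 did. Over all 77 probe sets, 67 fell and 1 rose in the Dox-labelled pair, and 66 fell and 0 rose in the RA-labelled pair. These counts come from the fit of all 54675 probe sets. The share of all probe sets that fell or rose in that fit was not counted, so they have no background here.

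All 3 single-strand binding genes fell in both pairs, with median log2 fold changes of -0.52 in the Dox-labelled and -0.91 in the RA-labelled pair. RPA1 and RPA2, subunits of the complex that coats unwound DNA, fell, with log2 fold changes of -0.52 and -0.34 in the Dox-labelled pair and -0.91 and -0.59 in the RA-labelled pair. RPA3, the smallest subunit, fell, with log2 fold changes of -1.14 and -1.82. For RPA2 the Dox-labelled call was lost without d0 with Dox replicate 2 or 3, or Dox-labelled replicate 2 or 3 (adjusted p 0.0542 to 0.0766).

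All 6 polymerase and primase genes fell in both pairs, with medians of -1.08 in the Dox-labelled and -1.68 in the RA-labelled pair. PRIM1, the catalytic primase subunit that lays the RNA primer, read 779, 809.7 and 618 on the Dox-labelled day 6 arrays, 277, 367 and 349 on the RA-labelled day 6 arrays, 1864, 1801 and 1920.0 on the d0 arrays with Dox and 1817, 1768 and 1861 on the d0 arrays without Dox. Its groups did not overlap at day 6, while those at d0 did. POLA1 and POLD1, catalytic subunits of polymerases alpha and delta, fell, with log2 fold changes of -1.05 and -1.02 in the Dox-labelled pair and -1.74 and -1.61 in the RA-labelled pair. POLE, the catalytic subunit of the leading-strand polymerase, had the smallest fall of the 6: -0.90 ± 0.13 (adjusted p = 0.000216) and -0.65 ± 0.13 (adjusted p = 0.00164) in the same pairs. POLA2 and PRIM2, the partner subunits of POLA1 and PRIM1, fell, with log2 fold changes of -1.11 and -1.18 in the Dox-labelled pair and -1.46 and -2.02 in the RA-labelled pair. PRIM2 had 4 more probe sets annotated to several genes, which were not used, so its level is uncertain.

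FEN1, the flap nuclease that trims Okazaki fragments, read 1439, 1305 and 1108 on the Dox-labelled day 6 arrays, 1234, 1092 and 908 on the RA-labelled day 6 arrays, 4388, 3843 and 3875 on the d0 arrays with Dox and 4643, 4071 and 4555 on the d0 arrays without Dox. Its day 6 groups overlapped. It fell, with log2 fold changes of -1.65 in the Dox-labelled pair (adjusted p = 2.91e-06) and -2.03 in the RA-labelled pair (adjusted p = 4.29e-07). LIG1, the ligase that seals the fragments, fell, with log2 fold changes of -1.18 and -1.33.

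Of the nucleotide enzymes, RRM2, the cell cycle-regulated subunit of ribonucleotide reductase, fell, with log2 fold changes of -1.36 in the Dox-labelled pair and -2.14 in the RA-labelled pair. RRM1, its large subunit, fell, with log2 fold changes of -0.77 and -1.17. TYMS, which makes thymidylate, read 8496, 8431 and 7267 on the Dox-labelled day 6 arrays, 5715, 6200.4 and 5381 on the RA-labelled day 6 arrays, 12208, 11623 and 10685 on the d0 arrays with Dox and 9243, 8372 and 9102 on the d0 arrays without Dox. Its day 6 groups did not overlap, and 2 Dox-labelled arrays lay above the lowest of the d0 arrays without Dox. Its log2 fold changes were -0.51 ± 0.09 (adjusted p = 0.000945) in the Dox-labelled pair and -0.63 ± 0.09 (adjusted p = 0.000194) in the RA-labelled pair. With the mean of its 3 probe sets, 1 of them at a mean of 4.09 to 42.0 in the 4 groups, the Dox-labelled fall did not pass (log2 fold change -0.38, adjusted p = 0.121).

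Of the G1/S regulators, E2F1, an activator of this gene set, read 125, 109 and 128 on the Dox-labelled day 6 arrays, 32.7, 39.5 and 54.3 on the RA-labelled day 6 arrays, 327, 324 and 356 on the d0 arrays with Dox and 342, 234 and 305 on the d0 arrays without Dox. The E2F1 groups at day 6 did not overlap, and both lay below every d0 array. CCNE2, one of the 2 E cyclins, read 122, 166 and 156 on the Dox-labelled day 6 arrays, 176, 168 and 119 on the RA-labelled day 6 arrays, 402, 516 and 475 on the d0 arrays with Dox and 701, 774 and 650.1 on the d0 arrays without Dox. Its day 6 groups overlapped fully. E2F1 fell, with log2 fold changes of -1.37 in the Dox-labelled pair and -2.41 in the RA-labelled pair. CCNE2 fell too, at -1.56 and -2.10 in those pairs. CCNE1, the other E cyclin, fell, with log2 fold changes of -1.03 and -0.97, so its falls in the 2 pairs were nearly alike.

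Expressed as the share of undifferentiated intensity left at day 6, the Dox-labelled pair had 18.1% to 135% left with a median of 43.7%, and the RA-labelled pair 9.19% to 118% with a median of 27.8%. Under 50% was left for 31 genes in the Dox-labelled pair and for 32 in the RA-labelled pair. The least was left in the RA-labelled pair for CDT1 (9.19%), MCM5 (9.34%) and MCM10 (11.5%). Those 3 genes kept 29.2%, 23.9% and 18.1% in the Dox-labelled pair. The share was higher in the Dox-labelled pair for 39 of 41 genes, and the exceptions were POLE (52.6% against 62.4%) and CCNE1 (48.4% against 50.4%). With each day 6 group set against the other d0 group, the share was higher for the Dox-labelled group for 36 of 41 genes, the exceptions being ORC2, RFC5, PRIM2, CCNE1 and CCNE2, and the medians were 40.99% and 30.8% for the Dox-labelled and RA-labelled groups.

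**Figure D4:**
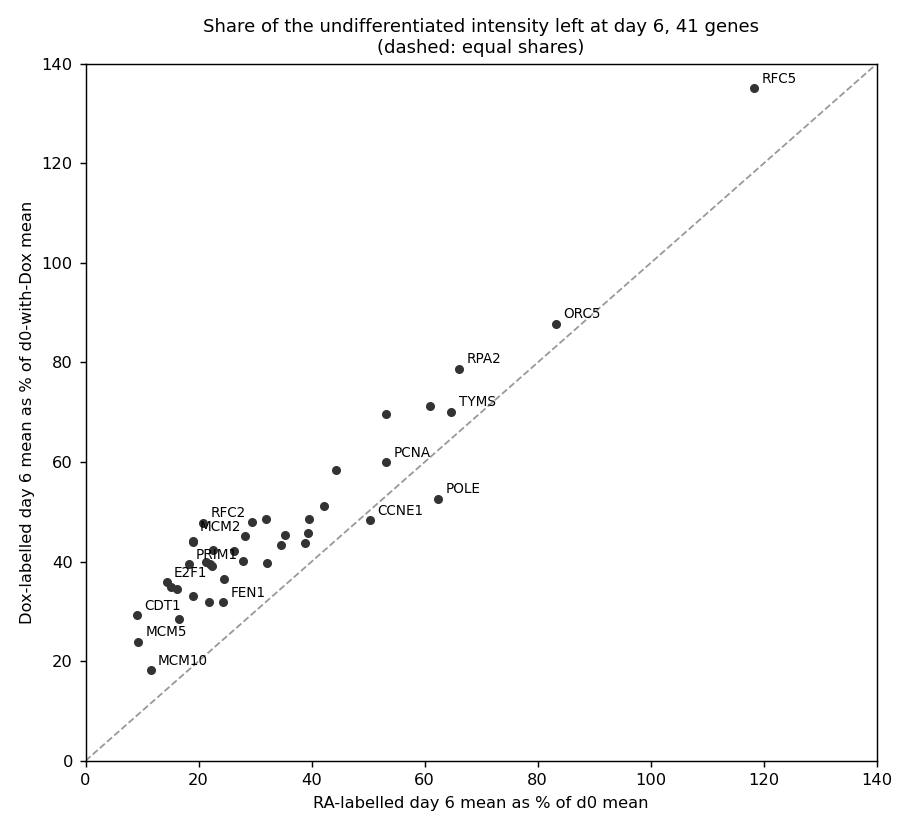
Percent of the undifferentiated intensity left at day 6 for each of the 41 genes, in the Dox-labelled pair against the RA-labelled pair, with the line of equal shares. Of the 41 points, 39 lie on the side of a higher share in the Dox-labelled pair, and RFC5 lies above 100% in both.

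The difference between the 2 day 6 changes was tested in the same fit, as the change in the Dox-labelled pair minus that in the RA-labelled pair. It was positive and past the threshold for 24 of the 41 genes and negative for 0, where 11.7% of all genes were positive and 12.5% negative (limma). Its median was 0.57, against -0.01 over all genes. With the pairs as labelled, the largest differences were 1.54 ± 0.29 for CDT1 (adjusted p = 0.00405) and 1.33 ± 0.14 for MCM5 (adjusted p = 0.000154). MCM2, RFC2, CDC6 and PRIM1 followed at 1.19, 1.17, 1.16 and 1.08. By role, the difference passed for both licensing factors, 5 of 6 MCM subunits, 3 of 5 firing factors, 4 of 6 polymerase and primase genes, 3 of 6 clamp and loader genes, 2 of 5 origin recognition genes, 2 of 3 single-strand binding genes, 2 of 3 nucleotide enzymes and 1 of 3 G1/S regulators. Neither Okazaki fragment gene passed. The 24 genes each had the shallower fall in the Dox-labelled pair. This difference pairs each day 6 group with a d0 group through its label, and it changed with the pairing. With each day 6 group set against the other d0 group, as an alternative chosen after seeing the data, the Dox-labelled change minus the RA-labelled change was positive and past the threshold for 17 of the 41 genes and negative for 1 (CCNE1, -0.40, adjusted p = 0.0394), where 11% and 7.18% of all genes were. Of the 24 genes, 16 passed in both pairings. The median was 0.33. The licensing factors and MCM5 did not pass there: CDT1 had 0.51 (adjusted p = 0.287), CDC6 0.05 (adjusted p = 0.851) and MCM5 0.23 (adjusted p = 0.323). MCM6, ORC1, RFC3 and RPA3 had 0.39, 0.82, 0.24 and 0.45 without passing, and PRIM2 had -0.06 (adjusted p = 0.908). The highest values in that pairing were those of E2F1 (1.44), MCM2 (1.24), PRIM1 (1.15) and CDC45 (1.10), and TYMS passed at 0.85. Leaving out single arrays left 20 to 25 genes past the threshold. ORC3, RRM1, PRIM2 and RFC3 lost the call without any 1 of 10, 10, 5 and 3 arrays, in that order (adjusted p 0.0505 to 0.0913).

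Between the day 6 groups themselves, replication genes were higher on the Dox-labelled arrays. Of the 41 genes 25 rose and 0 fell against the RA-labelled group, where 13.7% of all genes rose and 12.2% fell. The median was 0.47, against 0.00 over all genes, and the Dox-labelled arrays lay wholly above the RA-labelled ones for 29 genes and wholly below for 1, where 21.5% and 20.2% of all genes did. The design names this comparison as one of GCNF regulation in differentiating cells. The NR6A1 and CYP26A1 levels above leave its direction in terms of treatment unsettled.

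The largest rises were E2F1 at 1.24 ± 0.16 (adjusted p = 0.000263), MCM2 at 1.22 ± 0.09 (adjusted p = 1.06e-05) and PRIM1 at 1.12 ± 0.12 (adjusted p = 0.000102). CDC45, CDT1 and ORC1 followed, at 1.03 ± 0.14, 1.02 ± 0.21 and 0.94 ± 0.18. E2F1's rise was opposed by its other probe set, and with the mean of both it did not pass (log2 fold change 0.40, adjusted p = 0.0661). All 6 MCM subunits rose, by 0.31 (MCM7) to 1.22 (MCM2), with a median of 0.72. MCM7 did not pass without RA-labelled replicate 2 or 3 or Dox-labelled replicate 1 (adjusted p 0.0685 to 0.0895). Both licensing factors and all 3 nucleotide enzymes rose, as did E2F1, ORC1, ORC3, RPA1 and RPA3, CDC45, GINS1 and GINS2 among the firing factors, RFC2, RFC3 and RFC4 among the clamp and loader genes, and POLA1, POLD1 and PRIM1 among the polymerase and primase genes. With the mean of a gene's several probe sets, GINS2, RPA1 and TYMS did not pass (adjusted p = 0.146, 0.0842 and 0.0583). RFC3 did not pass without RA-labelled replicate 1 or Dox-labelled replicate 1 or 2 (adjusted p 0.0556 to 0.0668).

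The other 16 genes did not pass in that comparison. Among them CCNE1 had 657 ± 53.0 on the Dox-labelled and 771 ± 49.5 on the RA-labelled arrays (SD, n = 3 each), a log2 fold change of -0.23 ± 0.08 (adjusted p = 0.0678). It was the gene whose Dox-labelled arrays all lay below. ORC2, POLE, RFC5 and CCNE2 had log2 fold changes of -0.04, -0.07, -0.05 and -0.05. ORC5, PCNA, RFC1, LIG1, ORC6, GINS3, FEN1, RPA2, POLA2 and PRIM2 had values of 0.18 (ORC5) to 0.39 (PRIM2) without passing. With the mean of a gene's several probe sets, RFC5 (0.59, adjusted p = 0.00187), POLA2 (0.46, 0.0185), MCM10 (0.44, 0.033) and FEN1 (0.31, 0.0416) passed. MCM10 had 0.36 ± 0.21 (adjusted p = 0.265), and passed without Dox-labelled replicate 3 (0.63, adjusted p = 0.0111), as did its difference of the day 6 changes (0.86, adjusted p = 0.0111). PCNA and RPA2 passed without RA-labelled replicate 1 (adjusted p = 0.0433 and 0.0442), and POLA2 without RA-labelled replicate 2 (adjusted p = 0.0495).

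That array stood low for these genes as a set. Dox-labelled day 6 replicate 3 had the lowest of its group's 3 values for 33 of the 41 genes, where it had the lowest for 34.7% of all genes. The median of the 41 genes relative to the d0 mean without Dox was -1.14, -1.22 and -1.39 on the 3 Dox-labelled arrays in replicate order and -1.82, -1.87 and -1.86 on the RA-labelled arrays. At d0 with Dox the same median was -0.04, -0.04 and -0.03. The day 6 groups therefore did not overlap on this median. At d0 without Dox, replicate 2 had the lowest value for 25 of 41 genes and for 38.8% of all genes.

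In undifferentiated cells few replication genes passed the threshold with Dox. Of the 41 genes 1 rose and 3 fell at d0 with Dox against d0 without, and 37 did not pass, where 7.75% of all genes rose and 5.16% fell. The shares of the 41 genes were 2.44% and 7.32%, the first below and the second above that of all genes. The median was -0.06, against 0.03 over all genes. Before adjustment 10 of the 41 (24.4%) had p under 0.05, where 26.3% of all genes did. The arrays with Dox lay wholly above those without for 3 of the 41 genes and wholly below for 13, where 17.8% and 13.7% of all genes did. The 3 are a smaller share than that of all genes, and the 13 a larger one.

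CCNE2, CDC6 and MCM5 fell, at -0.60 ± 0.16 (adjusted p = 0.0378), -0.56 ± 0.10 (adjusted p = 0.00663) and -0.55 ± 0.10 (adjusted p = 0.0067). For each the 3 arrays with Dox lay below the 3 without. CDC6 and MCM5 held without any 1 array, and of all alternatives lost the call only at 1.5-fold or more. Of the 36 other probe sets of the 41 genes, 0 fell and 1 rose at d0 with Dox. MCM5's other probe set, 201755_at, had -0.31 (adjusted p = 0.198 in a limma fit of all 54675 probe sets). CCNE2 did not hold without any 1 of the 6 d0 arrays or without Dox-labelled day 6 replicate 3 (adjusted p 0.0520 to 0.124). With the mean of its probe sets or with pseudocount 1, CCNE2 did not pass either (adjusted p = 0.0568 and 0.0566). CDT1 had -0.51 ± 0.21 (adjusted p = 0.147) and did not pass, though its arrays did not overlap. TYMS rose, at 0.37 ± 0.09 (adjusted p = 0.0262), and did not pass without d0 replicate 1 or 2, or d0 with Dox replicate 1 or 2 (adjusted p 0.0521 to 0.0917). One of its other 2 probe sets gave 0.43 (adjusted p = 0.0122 in the fit of all 54675 probe sets). With the mean of all 3 the value was 0.07 (adjusted p = 0.864). Values that did not pass at d0 but did without 1 array were those of ORC2 (without Dox-labelled day 6 replicate 3, adjusted p = 0.0375), RFC2 (without RA-labelled replicate 2 or 3, 0.0421 and 0.0407), RFC5 (without Dox-labelled day 6 replicate 1, 0.0457) and RRM1 (without d0 replicate 2, 0.0296). With arrays centred on their medians, 0 of the 41 genes rose and 6 fell, and 1134 of all genes rose and 1482 fell, against 1532 and 1020 as reported. At day 6 the same change gave 2156 risen and 3291 fallen genes, against 2713 and 2407. That centring shifts all genes by 0.07 and 0.08 on the log2 scale.

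**Figure D5:**
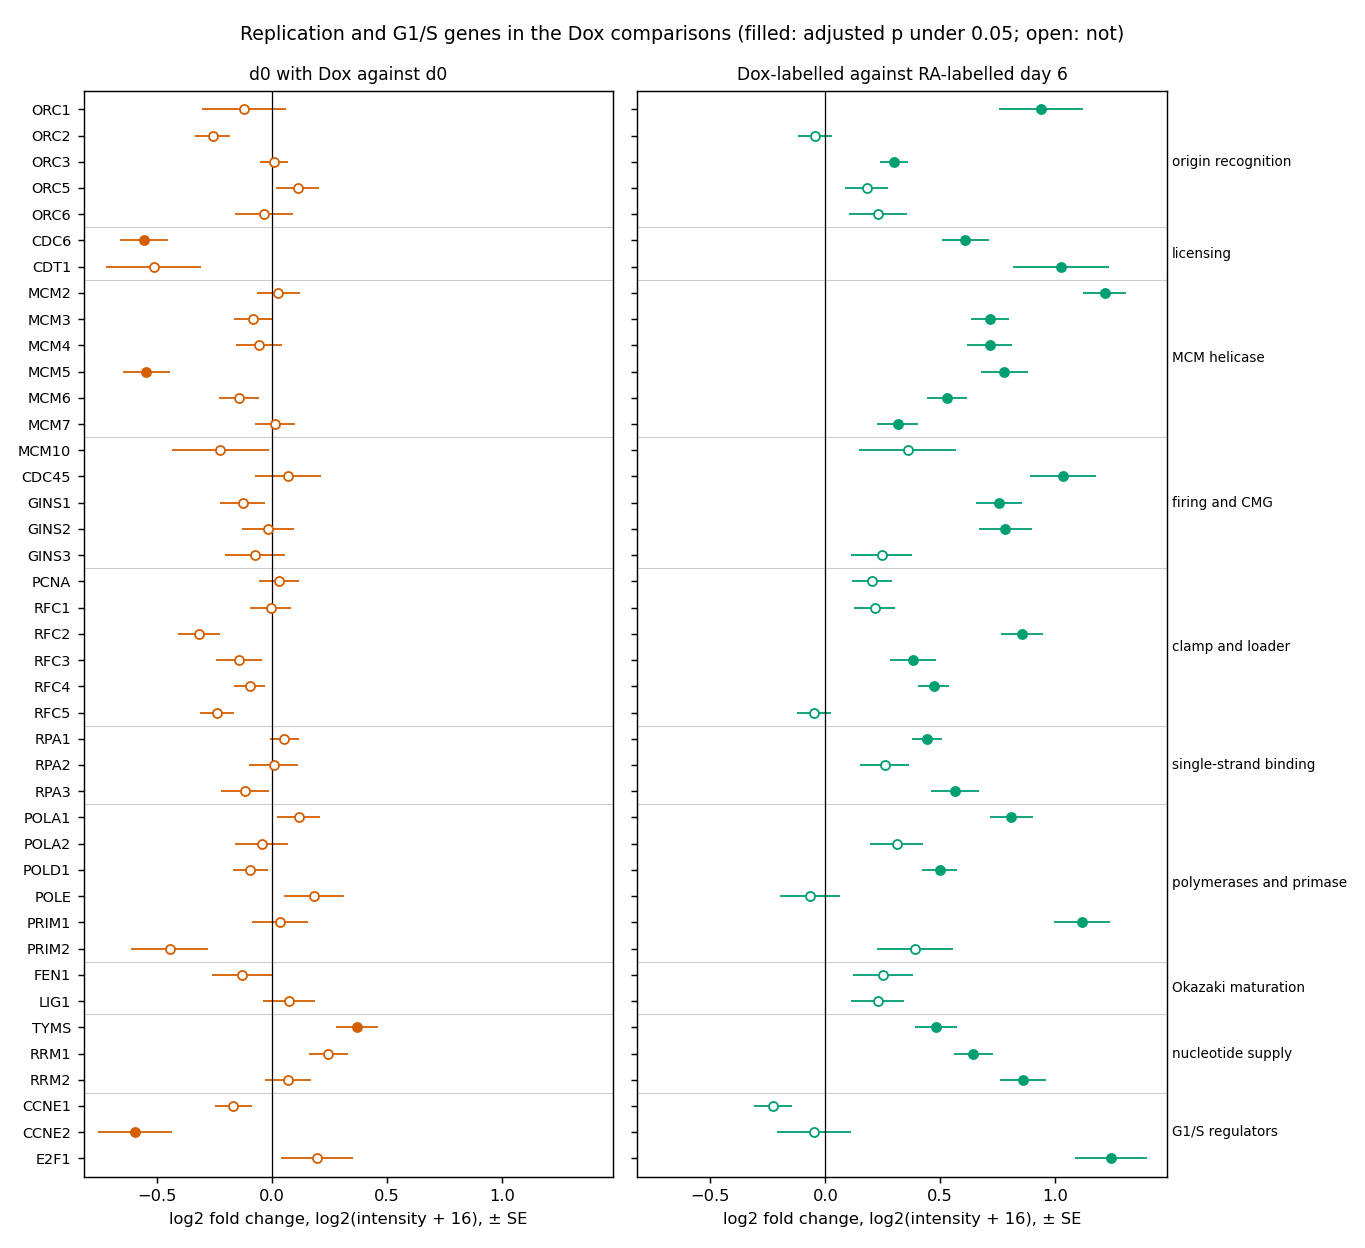
Log2 fold change of each of the 41 genes, with its SE, for Dox-labelled against RA-labelled day 6 and for d0 with Dox against d0 without. The day 6 values lie mostly above 0, and the d0 values scatter around it.

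A wider list of 61 measured genes of replication and the G1/S border was read in the same fit. In the Dox-labelled pair 49 fell and 5 rose (23.9% and 22.2% of all genes), and in the RA-labelled pair 52 fell and 5 rose (25.2% and 25.3% of all genes). Between the day 6 groups 37 rose and 0 fell on the Dox-labelled arrays, where 13.7% and 12.2% of all genes did. At d0 3 rose and 3 fell with Dox, 4.92% each, where 7.75% of all genes rose and 5.16% fell. Medians were -0.97, -1.40, 0.46 and 0.04 in that order. DSCC1, part of an alternative clamp loader, fell, with log2 fold changes of -2.36 in the Dox-labelled pair and -3.07 in the RA-labelled pair. DNA2, a nuclease-helicase, and CDC7, the kinase that fires origins, fell, with log2 fold changes of -2.31 and -1.98 in the Dox-labelled pair. E2F8, an E2F repressor, and CDC25A, the phosphatase that activates CDK2, fell, with log2 fold changes of -3.47 and -2.67 in the RA-labelled pair.

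Some genes of the wider list went up. POLD4, the small subunit of polymerase delta, rose by 2.05 in the Dox-labelled pair, with 950.2 ± 27.5 against 218 ± 18.4 at d0 with Dox (SD, n = 3 each). In the RA-labelled pair POLD4 rose by 1.73. RRM2B, the p53-induced ribonucleotide reductase subunit, rose by 1.54 and 1.13 in those pairs. RB1, which holds E2F factors, rose by 0.89 in the RA-labelled pair, and SLBP, the histone mRNA binding protein, by 0.58 in the Dox-labelled pair.

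Between the day 6 groups the wider list's largest rises on the Dox-labelled arrays were E2F8 at 1.81 ± 0.20 (adjusted p = 0.000125), CCNA2, cyclin A2, at 1.03 ± 0.08 (adjusted p = 9.46e-06), and FBXO5, an inhibitor of the anaphase-promoting complex, at 0.98 ± 0.13 (adjusted p = 0.000364). E2F8 averaged 241 ± 49.7 on the Dox-labelled and 58.3 ± 20.3 on the RA-labelled arrays (SD, n = 3 each). In the difference of the day 6 changes 33 passed with a positive and 1 with a negative value, where 11.7% and 12.5% of all genes did. E2F8, CCNA2 and POLD2, a polymerase delta subunit, were highest at 2.06, 1.14 and 1.12, and RB1 was the gene that passed with a negative value, -0.49. With each day 6 group set against the other d0 group, 31 passed with a positive and 2 (CHAF1A and RRM2B) with a negative value. Of all genes 11% and 7.18% did in that pairing. At d0 PCLAF, a PCNA-binding protein, TIMELESS, a fork protection factor, and E2F2 rose with Dox, by 0.50, 0.42 and 0.39. RRM2B, TIPIN, the partner of TIMELESS, and E2F3 fell, at -0.62, -0.35 and -0.34.

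Cell type markers also differed between the groups, in directions that varied with the cell type. All 9 measured pluripotency markers fell in both pairs, and their summed intensity per array was 18109 to 18891 in the Dox-labelled group, 18909 to 21062 in the RA-labelled group, 96932 to 101797 at d0 with Dox and 110654 to 120467 at d0 without. Such sums add different probe sets, so the brightest markers weigh most and a change in a dim one hardly shows. NANOG, a pluripotency factor, averaged 36.7 on the Dox-labelled arrays and 639.8 on the RA-labelled ones. Of 8 mesenchyme and muscle markers, 8 rose in the Dox-labelled pair and 7 in the RA-labelled pair, with sums of 117356 to 121185, 97837 to 110589, 34788 to 35502 and 30844 to 32746 in the same order of groups. Of all genes 22.2% rose and 23.9% fell in the Dox-labelled pair, and 25.3% and 25.2% in the RA-labelled pair. Between the day 6 groups 2 of the 9 pluripotency markers rose and 5 fell, 3 of the 8 mesenchyme and muscle markers rose, 2 of 6 trophoblast and amnion markers rose (sums 11005 to 11499 Dox-labelled, 5010.2 to 5465 RA-labelled) and 2 of 6 neural crest markers rose and 1 fell (5981 to 6455 and 3333 to 3562). Of 6 neural markers 2 rose and 0 fell. Between the day 6 groups 13.7% of all genes rose and 12.2% fell. Neural markers summed to 8271 to 8962 and 8190.3 to 8563, endoderm and liver markers to 2007 to 3814 and 1242 to 3952, and endothelium and blood markers to 614 to 774 and 489 to 645 in those groups. No marker was at 0. PRDM14 and FOXD3 in the Dox-labelled group, DLX2 at d0 without Dox, and NEUROG2 and CGA in every group averaged under 16. The 3′ to 5′ ratio of ACTB control probe sets was 2.33 ± 0.06 (Dox-labelled), 2.59 ± 0.29 (RA-labelled), 3.86 ± 0.01 (d0 with Dox) and 3.24 ± 0.14 (d0 without; SD, n = 3 each). That of GAPDH was 1.46 ± 0.02, 1.35 ± 0.08, 1.62 ± 0.06 and 1.53 ± 0.06 in the same order of groups, so between the day 6 groups the ratios of the control genes differed in opposite directions. The part of cell type, medium or RNA quality in the results was not tested.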

How the data were processed

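Total RNA was read on 12 arrays, 3 a group, with groups and replicate numbers from the sample titles. The authors deposited 1 linear intensity per probe set and array, and the labels do not say how background, summarising and scaling were done. Arrays' median intensity was 64.2 to 78.0, with 23.1% to 26.5% of an array's probe sets under 16. The number of arrays limits the precision.

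Of 54675 probe sets, 41097 had 1 gene symbol in the platform's annotation, 1801 had several and 11777 were not listed there. Symbols were updated by gene ID for 41043, leaving 19775 genes, each read through its brightest single-gene probe set by mean log2 value. limma 3.58.1 in R 4.3.3 was fitted to log2(intensity + 16) of all 12 arrays with a mean per group (lmFit, eBayes, 8 residual degrees of freedom, two-sided), with Benjamini-Hochberg adjustment over all genes at 0.05. The fit was tested on simulated data. The 41 genes, the role groups, the wider list and the markers were chosen with earlier results of these data known. Array values are given for MCM2 to MCM7 and for up to 6 called genes with the largest rise and fall in each comparison, and values for up to 3 such genes of the wider list. Replicate numbers did not pair the arrays: deviations of same-numbered arrays correlated at r = -0.0084 to 0.048, 0 of 18 pairs over 0.1. Alternatives changed the scaling, pseudocount, probe set choice, filter, variance model, arrays included and, chosen after seeing the data, the d0 group each day 6 group was set against.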

Additional observations from a re-analysis of the deposited data

Results flagged for a closer look

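The day 6 change in the Dox-labelled pair differed from that in the RA-labelled pair for 24 of the 41 genes, by the test of that difference in limma, where 11.7% of all genes had a positive and 12.5% a negative difference. These values rest on day 6 labels that marker levels went against. With each day 6 group set against the other d0 group, 16 of the 24 passed, and CDT1 (0.51), CDC6 (0.05), MCM5 (0.23), MCM6 (0.39), ORC1 (0.82), RFC3 (0.24), RPA3 (0.45) and PRIM2 (-0.06) did not. With the pairs as labelled, values are the first change minus the second on the log2 scale, and all 24 are positive. Licensing factors differed by 1.54 (CDT1) and 1.16 (CDC6). Helicase subunits differed by 1.33 (MCM5), 1.19 (MCM2), 0.80 (MCM3), 0.77 (MCM4) and 0.67 (MCM6), and firing factors by 0.96 (CDC45), 0.88 (GINS1) and 0.80 (GINS2). Clamp loader genes differed by 1.17 (RFC2), 0.57 (RFC4) and 0.53 (RFC3), and polymerase and primase genes by 1.08 (PRIM1), 0.83 (PRIM2), 0.69 (POLA1) and 0.59 (POLD1). Origin recognition genes differed by 1.06 (ORC1) and 0.29 (ORC3), E2F1 by 1.05, nucleotide enzymes by 0.79 (RRM2) and 0.40 (RRM1), and single-strand binding genes by 0.68 (RPA3) and 0.39 (RPA1). For GINS2, E2F1, RPA1 and RRM1 the difference did not pass when all probe sets of a gene were averaged. ORC3 has 1 single-gene probe set and kept its value of 0.29, but did not pass in that limma fit (adjusted p = 0.0562).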

How the results depend on the processing

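Over all alternatives, 35 to 39 of the 41 genes fell in the Dox-labelled pair and 39 to 40 in the RA-labelled pair, the 35 at 1.5-fold or more. Of 205 gene and comparison results, 149 kept their call under all alternatives, and of 4997 values 4820 kept direction and call. At d0, where 1 gene rose with Dox as reported, 0 rose with median centring, with only the arrays compared and at 1.5-fold or more, 2 rose with genes at or above the median mean, with a trend and robust variance and with array weights, and 0 to 1 without single arrays. Where 3 fell as reported, 5 fell with quantile normalization or array weights, 6 with median centring, pseudocount 64 or a trend and robust variance, 7 with genes at or above the median mean, 1 at 1.5-fold or more and 2 to 4 without single arrays. Of all 19775 genes at d0, 1501 rose and 1109 fell with quantile normalization, and 1671 and 1176 with array weights. With pseudocount 64 these counts were 1769 and 1275, and with a trend and robust variance 2044 and 1405. Median centring gave 1134 and 1482. Of the 9888 genes at or above the median mean, 1917 rose and 1336 fell. In each of these settings a larger share of the replication genes fell than of all genes, but all of them use the same d0 arrays. As reported the shares were 7.32% and 5.16%. With pseudocount 1 or with averaged probe sets the fall of CCNE2 was lost. The members' median log2 fold change at d0 with Dox against without was 0.00095 when probe sets of a gene were averaged. Between the day 6 groups 16 rose at 1.5-fold or more and 23 to 26 without single arrays, and 1 (CCNE1) fell with quantile normalization, median centring, genes at or above the median mean or a trend and robust variance. RFC5 alone rose in the day 6 pairs: 0 genes rose in either with averaged probe sets or at 1.5-fold or more, and 0 to 1 in the RA-labelled pair without single arrays. With probe sets averaged, RFC5's log2 fold changes were 0.59 between day 6 groups, -0.55 in the Dox-labelled pair and -1.08 in the RA-labelled pair. With the replicate block, which the arrays' pairing does not warrant, 25 genes rose between day 6 groups, 39 fell in each pair and 22 differed between pairs. Of all 19775 genes, 2588 rose between day 6 groups with that block. In the Dox-labelled pair 4671 fell and in the RA-labelled pair 4950, and the difference was positive for 2177 and negative for 2383. With each day 6 group set against the other d0 group, chosen after seeing the data, 0 genes rose in the Dox-labelled group, 1 gene had a negative difference of the day 6 changes (CCNE1), and PRIM2's difference was -0.055. Over all genes, 891 rose and 631 fell at d0 with only the arrays compared, and 664 and 429 at 1.5-fold or more, against 1532 and 1020 as reported. Between day 6 groups 1424 rose and 1090 fell at 1.5-fold or more, against 2713 and 2407. Values near 16 are compressed by the pseudocount.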
